A study of Homo sapiens with 6 samples.

Results

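Of the 20325 genes in the deposited table, 10 that encode regulators or substrates of mTORC1 were examined. This kinase complex drives protein synthesis and growth when amino acids, energy and growth factors are plentiful. The 10 genes were chosen by name: the sestrins SESN1, SESN2 and SESN3, the TSC-pathway genes DDIT4 and TSC2, the Rag GTPases RRAGC and RRAGD, the mTOR-binding inhibitor DEPTOR, and the translation repressors EIF4EBP1 and EIF4EBP2. EIF4EBP1 and EIF4EBP2 are substrates of the complex. RNA came from an established line of human gastric cancer cells, SNU-668, in a derivative that the labels describe as resistant to erastin, an inhibitor of cystine import that triggers ferroptosis. The prefix RLS3 stands in every sample title without an explanation, and its meaning is not known here. These resistant cells received an shRNA against ALKBH3 (genotype label ALKBH3 knockdown, 3 libraries) or a control shRNA (genotype label WT, 3 libraries), so both groups share the resistance and the transfection. ALKBH3 is a demethylase of alkylated DNA and RNA. The labels give no time after transfection, do not say whether cells were pooled or clonal, and name no separate cultures for the replicates, so p-values here measure the spread between these libraries only, which may be technical.

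As background, mTORC1 is called to the lysosome surface by heterodimers of the Rag GTPases, in which RRAGA or RRAGB pairs with RRAGC or RRAGD, and is switched on there by the small GTPase RHEB. The sestrins report amino acid shortage and stress to the Rag branch by binding GATOR2, and SESN2 is known as a leucine sensor. DDIT4, also called REDD1, acts through the TSC1 and TSC2 complex, which turns RHEB off. Downstream, active mTORC1 phosphorylates the 4E-BP proteins, and when it is inactive they hold the cap-binding factor EIF4E. SESN2, DDIT4 and EIF4EBP1 are known targets of the stress factor ATF4, while DDIT4 is also induced by low oxygen and SESN3 by FOXO factors.

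The promoters of SESN2 and DDIT4, the members that rose most, and that of TSC2 are shown because they differ in the motifs they hold. Sequences are from RefSeq on GRCh38.p14, read along the gene from 250 bases before the start to 50 after it; 7 of the 10 members had an entry that was searched. TSC2 has 2 listed starts, and the first is shown. Capitals mark matches on either strand to TGATGNAA (an ATF4 and C/EBP element), CACGTG (an E-box) and GTAAACA (a FOXO site). They also mark ACGTG, the core of the hypoxia element, which is contained in the E-box, and the CCAAT box, which reads ATTGG when it lies on the other strand. ACGTG and CCAAT were added to the search after the sequences were seen.
SESN2, chr1:28259268-28259567, plus strand: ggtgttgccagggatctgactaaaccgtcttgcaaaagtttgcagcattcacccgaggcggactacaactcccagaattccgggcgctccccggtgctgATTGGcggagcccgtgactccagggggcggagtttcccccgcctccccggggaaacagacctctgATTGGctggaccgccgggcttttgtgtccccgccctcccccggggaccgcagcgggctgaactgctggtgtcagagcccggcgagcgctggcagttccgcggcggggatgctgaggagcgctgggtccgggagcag
DDIT4, chr10:72273674-72273973, plus strand: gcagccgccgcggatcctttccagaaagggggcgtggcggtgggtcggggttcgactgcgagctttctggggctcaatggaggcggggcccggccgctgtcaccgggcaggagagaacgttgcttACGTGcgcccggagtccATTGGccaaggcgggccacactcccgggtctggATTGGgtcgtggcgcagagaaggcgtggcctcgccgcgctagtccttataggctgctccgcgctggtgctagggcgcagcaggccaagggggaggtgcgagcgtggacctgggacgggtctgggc
TSC2, chr16:2047735-2048034, plus strand: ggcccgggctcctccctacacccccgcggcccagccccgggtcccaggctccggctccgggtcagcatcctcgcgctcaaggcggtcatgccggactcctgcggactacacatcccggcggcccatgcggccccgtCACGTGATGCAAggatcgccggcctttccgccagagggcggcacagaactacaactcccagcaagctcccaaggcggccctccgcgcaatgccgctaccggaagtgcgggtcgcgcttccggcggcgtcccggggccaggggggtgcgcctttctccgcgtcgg
SESN2 and DDIT4 each held 2 matches to CCAAT, at 151 and 86 bases before the start in SESN2 and at 108 and 75 in DDIT4, and 10.8% of the 35116 human promoters of this length hold 2 or more. DDIT4 also held ACGTG at 125 bases before the start, as did 21.4% of promoters. Neither held TGATGNAA, CACGTG or GTAAACA. The TSC2 window held CACGTG at 114 bases before the start, running into TGATGCAA, a match to TGATGNAA, at 110. All promoters held these motifs in 7.26% and 3.62% of cases. Of the searched members not shown, RRAGC held CACGTG at 112 bases before the start and CCAAT at 60. SESN1 held CCAAT, and SESN3 and EIF4EBP2 held none of the motifs. EIF4EBP1 was not among those searched. A match is a description of letters in this window only.

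The libraries held 14244932 to 17880183 counts, and 1 count was worth 0.0556 to 0.0704 CPM. On the second principal component knockdown replicate 1 stood apart at 9.30, against -5.10 and -5.15 for the other knockdown libraries, and control replicate 2 at -17.9, against 9.81 and 9.03 for the other controls. The knockdown was present in each library: ALKBH3 had 95, 106 and 68 raw counts in knockdown libraries, against 326, 351 and 334 in control libraries, which is 0.232 of the control level (edgeR, adjusted p = 1.01e-10). Of 9 epithelial markers, CDH1 and GRHL2 had no reads in any library. The summed level of the list was 220.1 to 237 CPM in knockdown and 157 to 182 CPM in control libraries. KRT18 made up most of this sum, at 188 to 200 CPM in knockdown and 137 to 157 CPM in control libraries. EPCAM had 7 to 10 counts in knockdown and 4 to 16 in control libraries. Of the list's 4 tested genes 3 rose, KRT7, KRT18 and KRT8, of which KRT8 lost its call with DESeq2 (0.0658) and without knockdown replicate 1, 2 or 3 or control replicate 1 or 2 (adjusted p = 0.0727 to 0.136). The part of these markers in the results below was not tested. The 8 mesenchymal markers, with VIM at 3865 ± 44.4 and 3840 ± 168 CPM in knockdown and control libraries, summed to 9483 to 10370 CPM in knockdown and 9911 to 10940 CPM in control libraries. None of them was called by edgeR, with 3 at an unadjusted p under 0.05, while 1 was lower by DESeq2, by limma-voom and without knockdown replicate 1, and 1 was higher without control replicate 2. Blood and endothelial markers summed to 2.53 to 5.98 CPM in knockdown and 2.42 to 3.31 CPM in control libraries, with CD3E and HBB at 0 and none called (0 also at an unadjusted p under 0.05, by DESeq2 and by limma-voom).

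SESN2, DDIT4 and EIF4EBP1 rose in the knockdown by edgeR's quasi-likelihood test, and the other 7 members did not pass the test in either direction. Across all 12305 tested genes, 8.08% were called, 3.96% higher and 4.12% lower (487 and 507 genes, or 610 and 417 when scaled by library totals without TMM), and the groups did not overlap in 26.6%. Against this, 3 of 10 members were higher and 0 lower at an adjusted p under 0.05 in edgeR, with 4 at an unadjusted p under 0.05, and DESeq2 and limma-voom gave the same counts of 3 and 0. Earlier results of these data were known when the 10 were picked. Their share of calls may thus reflect that choice and cannot be read as an excess over all tested genes. The median log2 fold change of the 10 was 0.03, against 0.01 over all tested genes. All 10 passed the filter on low counts, but RRAGD reached the level of 0.657 CPM in 1 knockdown library and 3 control libraries, and DEPTOR in 3 knockdown and 2 control libraries.

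**Figure D1:**
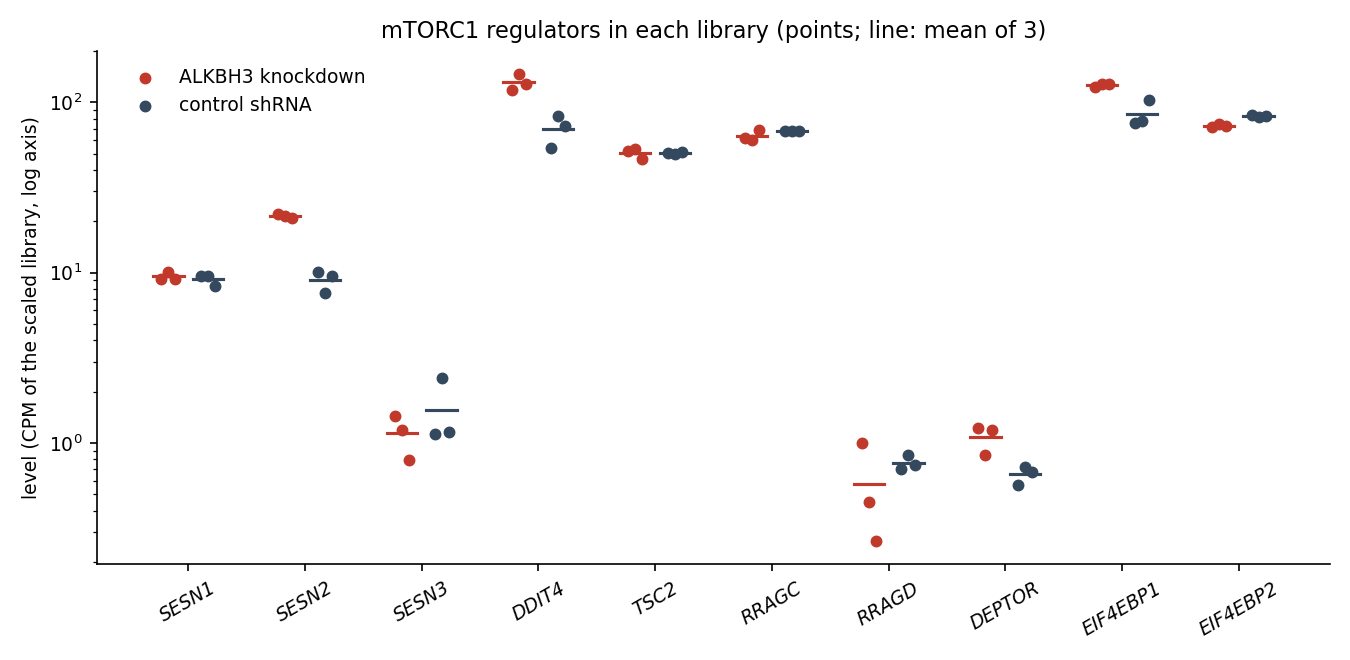
Level of each of the 10 genes in each library, in CPM of the scaled library on a log axis; red points are the 3 knockdown libraries, dark points the 3 control libraries, and lines the means. All knockdown points of SESN2, DDIT4 and EIF4EBP1 lie above all control points, while SESN3, RRAGD and DEPTOR lie near 1 CPM.

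Among the 3 sestrins, SESN2 was called, and SESN1 and SESN3 were not. SESN2 (ENSG00000130766, plus strand of chromosome 1, from 28586038 to 28609002 in hg19, as for all gene positions given here) had 395, 382 and 315 raw counts in knockdown libraries, against 144, 116 and 141 in control libraries. That was 21.97, 21.5 and 20.9 CPM in knockdown libraries, against 10.1, 7.58 and 9.54 CPM in control libraries. Every knockdown library lay above every control library, with the knockdown libraries close together and control replicate 2 the lowest. In RNA of a whole culture, more RNA per cell and more expressing cells cannot be told apart. SESN2 rose 2.37-fold, to 21.5 ± 0.521 CPM in the knockdown, against 9.09 ± 1.34 CPM in controls (SD, n = 3 each), on the log2 scale 1.24 (SE 0.131, 95% interval 0.97 to 1.51) (edgeR, adjusted p = 3.07e-07). It was place 37 of all tested genes by p-value.

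SESN1, a stress-induced sestrin (ENSG00000080546, minus strand of chromosome 6, from 109307640 to 109416022), had 166, 179 and 139 raw counts in knockdown libraries, against 135, 147 and 124 in control libraries. Its level was 9.23, 10.1 and 9.24 CPM in knockdown libraries, against 9.51, 9.61 and 8.39 CPM in control libraries. The groups overlapped. On the log2 scale the difference was 0.05 with a 95% interval of -0.24 to 0.35 (edgeR, adjusted p = 0.872), so changes above 1.27-fold lay outside the interval.

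SESN3 (ENSG00000149212, minus strand of chromosome 11, from 94898704 to 94965705) was scarce, with 26, 21 and 12 raw counts in knockdown libraries, against 16, 37 and 17 in control libraries. Control replicate 2 held the highest count and knockdown replicate 3 the lowest, and the groups overlapped. The log2 fold change was -0.44 with a 95% interval of -1.20 to 0.31 (edgeR, adjusted p = 0.523), and 0.02 without control replicate 2. The interval spans 0.4345 to 1.24 times the control level, and changes within that range are compatible with these low counts.

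Ratios of counts within a library do not depend on how libraries were scaled. SESN2 had 2.38, 2.13 and 2.27 counts for each SESN1 count in knockdown libraries, against 1.07, 0.789 and 1.14 in control libraries. The ratio was 2.29 times as high in the knockdown, with no overlap (exact permutation test, two-sided, p = 0.1, the smallest that 3 against 3 can give). SESN2 over SESN3 was 15.2, 18.2 and 26.2 in knockdown libraries, against 9, 3.14 and 8.29 in control libraries, also with no overlap and the same exact p of 0.1, though it rests on the low SESN3 counts. These are 2 of 5 such ratios computed, all with an adjusted exact p of 0.1. The ratios were chosen after values were seen, and each holds a gene that was called. The lack of overlap was thus partly set by that choice and is no separate support.

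DDIT4, the inhibitor that works through the TSC complex, rose as well. It is a short gene (ENSG00000168209, plus strand of chromosome 10, from 74033678 to 74035794). The level was 117.5, 147 and 129 CPM in knockdown libraries, against 53.9, 83.4 and 73.2 CPM in control libraries, from 1936 to 2602 raw counts in knockdown and 766 to 1275 in control libraries. Every knockdown library lay above every control library, and control replicate 1 was the lowest. DDIT4 rose 1.87-fold, to 131 ± 14.7 CPM in the knockdown, against 70.2 ± 14.9 CPM in controls (SD, n = 3 each), on the log2 scale 0.90 (SE 0.133, 95% interval 0.61 to 1.19) (edgeR, adjusted p = 0.000926). Leaving out control replicate 1 gave 0.74 on the log2 scale, and leaving out control replicate 2 gave 1.04. Over the alternatives the adjusted p of DDIT4 reached 0.0313, against at most 2.43e-06 for SESN2 and 0.00301 for EIF4EBP1.

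TSC2, the GTPase-activating subunit of the TSC complex (ENSG00000103197, plus strand of chromosome 16, from 2097466 to 2138716), was not called. It had 52.2, 52.9 and 46.4 CPM in knockdown libraries, against 50.6, 49.95 and 50.9 CPM in control libraries, and the groups overlapped. Its log2 fold change was 0.0019 with a 95% interval of -0.18 to 0.18 (edgeR, adjusted p = 0.993). Its ends overlap 2 genes on the minus strand, NTHL1 over 402 bases and PKD1 over 6 bases. Whether counting used the strand is not given in the sources used here, so reads in the shared bases cannot be told apart. PKD1 rose 1.37-fold, and NTHL1 had a log2 fold change of -0.04 (edgeR, adjusted p = 0.00118 and 0.907). DDIT4 over TSC2 was 2.25, 2.77 and 2.77 in knockdown libraries, against 1.07, 1.67 and 1.44 in control libraries, with no overlap (exact permutation test, two-sided, p = 0.1). TSC1, the scaffold partner of TSC2, had a log2 fold change of 0.10 (edgeR, adjusted p = 0.582), and DDIT4L, the DDIT4 paralog, had no reads in any library, which allows up to 3 counts per library.

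Neither Rag gene among the members was called. RRAGC (ENSG00000116954, minus strand of chromosome 1, from 39303870 to 39325495) had 62.2, 60.1 and 68.5 CPM in knockdown libraries, against 68.0, 68.1 and 68.35 CPM in control libraries. The controls were nearly identical, and knockdown replicate 3 lay just above them, so the groups overlapped. The log2 fold change was -0.10 with a 95% interval of -0.27 to 0.07 (edgeR, adjusted p = 0.517). RRAGD (ENSG00000025039, minus strand of chromosome 6, from 90074355 to 90121989) was near the filter level, with 18, 8 and 4 raw counts in knockdown libraries, against 10, 13 and 11 in control libraries. Knockdown replicate 1 lay above and the other knockdown libraries below all controls. Its log2 fold change was -0.38 with a 95% interval of -1.38 to 0.62 (edgeR, adjusted p = 0.704), or -1.06 without knockdown replicate 1 (adjusted p = 0.344).

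Of the partner chains that RRAGC and RRAGD bind, RRAGA was lower, at 66.9 ± 7.99 CPM in the knockdown and 85.65 ± 8.58 CPM in controls (SD, n = 3 each). Its log2 fold change was -0.36 (edgeR, adjusted p = 0.0172), and the call was lost without knockdown replicate 1 or 2 or control replicate 3 (adjusted p = 0.0527 to 0.0991). RRAGB was at 19.1 ± 0.493 and 16.5 ± 1.66 CPM in knockdown and controls, with a log2 fold change of 0.21 (edgeR, adjusted p = 0.311). RRAGC over RRAGA was 1.06, 0.886 and 0.9205 in knockdown libraries, against 0.853, 0.834 and 0.716 in control libraries, a ratio 1.19 times as high in the knockdown (exact permutation test, two-sided, p = 0.1).

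DEPTOR, a subunit that restrains mTOR (ENSG00000155792, plus strand of chromosome 8, from 120885957 to 121063152), was also near the filter level, with 22, 15 and 18 raw counts in knockdown libraries, against 8, 11 and 10 in control libraries. Every knockdown count lay above every control count. A log2 fold change of 0.72 was fitted, but its 95% interval ran from -0.11 to 1.55 and it did not pass (edgeR, adjusted p = 0.302). Over the alternatives the adjusted p ran from 0.282 to 0.533.

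Of the 4E-BP genes, EIF4EBP1 rose, and EIF4EBP2 was lower in every library without passing the adjusted test. EIF4EBP1 (ENSG00000187840, plus strand of chromosome 8, from 37887859 to 37917883) had 124, 129 and 128 CPM in knockdown libraries, against 75.6, 78.1 and 103 CPM in control libraries. The knockdown libraries were alike, and control replicate 3 stood above the other controls without reaching them. EIF4EBP1 rose 1.48-fold, to 127 ± 2.58 CPM in the knockdown, against 85.6 ± 15.2 CPM in controls (SD, n = 3 each), on the log2 scale 0.57 (SE 0.0955, 95% interval 0.37 to 0.76) (edgeR, adjusted p = 0.000392). Without control replicate 3 the log2 fold change was 0.72.

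EIF4EBP2 (ENSG00000148730, plus strand of chromosome 10, from 72164135 to 72188374) had 71.9, 74.9 and 72.4 CPM in knockdown libraries, against 84.6, 81.7 and 83.0 CPM in control libraries. Every knockdown library lay below every control library by a small margin. The log2 fold change was -0.19 with a 95% interval of -0.35 to -0.03 (edgeR, unadjusted p = 0.0244, adjusted p = 0.1497). Within libraries, EIF4EBP1 over EIF4EBP2 was 1.72, 1.72 and 1.765 in the knockdown, against 0.893, 0.955 and 1.24 in controls, a ratio 1.70 times as high in the knockdown with no overlap (exact permutation test, two-sided, p = 0.1). Their paralog EIF4EBP3 had 0, 2 and 0 raw counts in knockdown and 2, 0 and 0 in control libraries and was not tested.

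**Figure D2:**
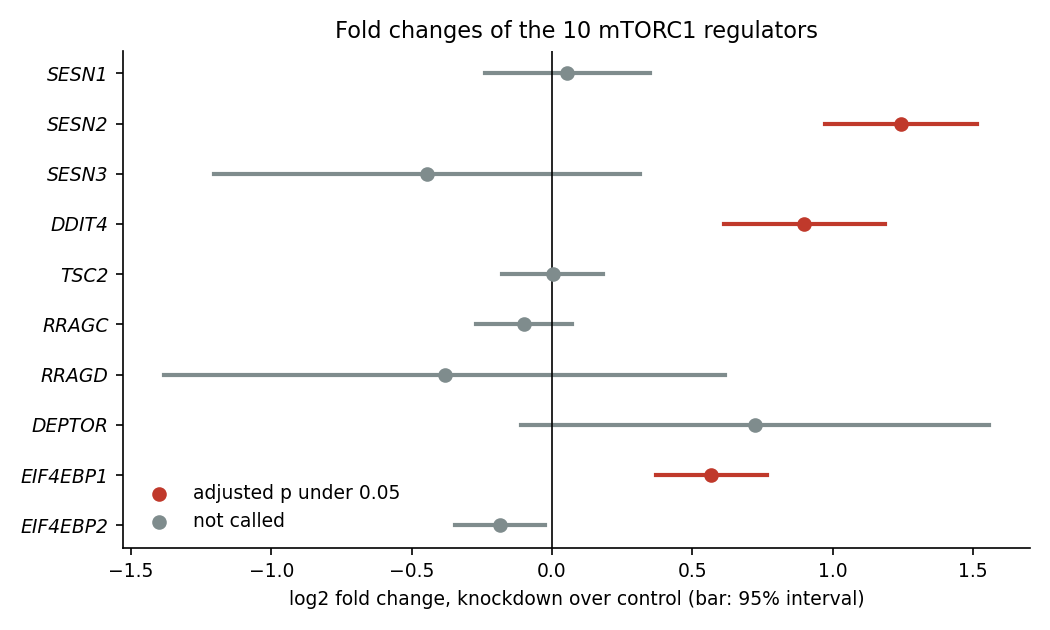
Log2 fold change, knockdown over control, of the 10 genes, with 95% intervals as bars; red marks an adjusted p under 0.05 and grey a gene not called. The intervals of SESN2, DDIT4 and EIF4EBP1 lie above 0, and those of SESN3, RRAGD and DEPTOR are the widest.

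**Figure D3:**
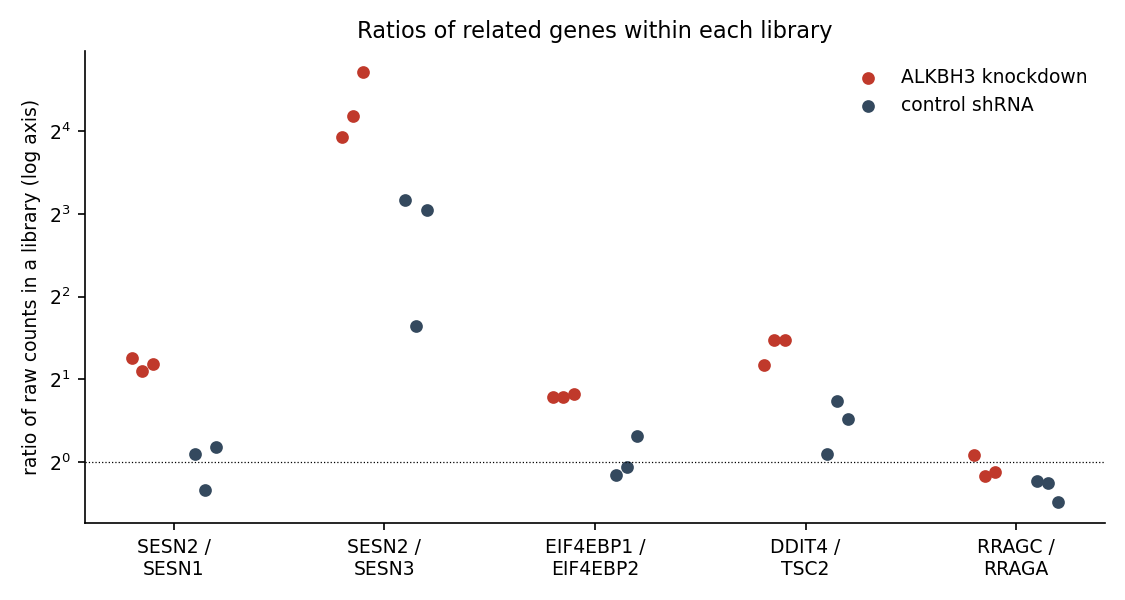
Ratio of raw counts of related genes within each library, on a log axis, with the 3 knockdown libraries in red and the 3 control libraries dark. The knockdown points lie above the control points in all 5 ratios, from a ratio 1.19 times as high for RRAGC over RRAGA to 3.14 times for SESN2 over SESN3. The ratios were chosen after values were seen, and each holds a gene that was called.

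Levels of different genes were compared per kilobase, with the length of the GENCODE 29 transcript that has the longest coding sequence. EIF4EBP1 was highest, at 124 ± 2.53 CPM per kilobase in the knockdown and 83.9 ± 14.9 in controls. DDIT4 came next, at 74.9 ± 8.42 in the knockdown and 40.1 ± 8.55 in controls, followed by RRAGC at 23.3 ± 1.604 and 24.95 ± 0.0619. EIF4EBP2 was at 10.1 ± 0.222 in the knockdown and 11.45 ± 0.196 in controls, and TSC2 at 8.19 ± 0.581 and 8.19 ± 0.0774. In controls SESN2 and SESN1 could not be ordered, at 2.63 ± 0.387 and 2.61 ± 0.193 CPM per kilobase, whereas in the knockdown SESN2 was at 6.22 ± 0.151 and SESN1 at 2.71 ± 0.141. DEPTOR was at 0.424 ± 0.0820 in the knockdown and 0.254 ± 0.0314 in controls. SESN3 and RRAGD were lowest and could not be ordered in either group, at 0.1195 and 0.117 in the knockdown and 0.164 and 0.156 in controls. With the merged exons of the gene as length, TSC2 was at 2.57 CPM per kilobase in both groups, beside SESN2 in controls at 2.63.

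The genes whose pattern over the 6 libraries was closest to a member were found among the others with a mean of at least 5 CPM (10434 genes for SESN2 and DDIT4, 10435 for SESN3), by the root mean square difference of log2 levels set to 0 at the control mean. For SESN2 these were the glycyl-tRNA synthetase GARS (0.0573), the bZIP factor JDP2 (0.0746) and the mitochondrial folate enzyme MTHFD2 (0.0779). For DDIT4 they were XAF1 (0.127), FAM43A (0.168) and KCTD15 (0.185). For SESN3, with 12 to 37 counts a library, they were SLC2A13 (0.178), ITGAX (0.1855) and LARGE (0.191), none of them called.

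The other genes of the mTORC1 pathway were set beside the members. Over 7 lists with 76 tested genes outside the members, 2 rose and 6 fell, with a median log2 fold change of 0.005 and 10.5% called, against 8.08% of all tested genes. The 6 became 1 without knockdown replicate 1 or control replicate 2, and 2 without knockdown replicate 3 or control replicate 3, and the 2 became 1 without knockdown replicate 2 and 3 without control replicate 1. The 6 became 4 without knockdown replicate 2 or control replicate 1. Since the lists too were picked after earlier results were known, 10.5% against 8.08% is no test of an excess.

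Among 11 mTOR complex subunits and assembly factors, RPTOR, the mTORC1 scaffold that binds substrates, and PRR5L, a partner of mTORC2, were lower and 0 were higher by edgeR, DESeq2 or limma-voom, with 4 at an unadjusted p under 0.05 and a median of -0.19 on the log2 scale. The 2 lower became 1 without knockdown replicate 1 or control replicate 1 and 0 without any other library. RPTOR was at 64.8 ± 4.72 CPM in the knockdown and 78.5 ± 1.74 CPM in controls, with a log2 fold change of -0.28 (edgeR, adjusted p = 0.0378). It lost its call with library totals as the only scaling (0.0613) and without knockdown replicate 2 or 3 or control replicate 1, 2 or 3 (adjusted p = 0.0537 to 0.217). PRR5L had a log2 fold change of -0.36 (edgeR, adjusted p = 0.0313) and lost its call without knockdown replicate 1, 2 or 3 or control replicate 2 or 3 (adjusted p = 0.0687 to 0.107). MTOR itself, named after its value was seen, had a log2 fold change of -0.21 (edgeR, adjusted p = 0.128).

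In the Rag and Ragulator docking list, 2 of 11 tested genes fell and 0 rose by edgeR, DESeq2 or limma-voom, with 2 at an unadjusted p under 0.05 and a median of -0.08. Besides RRAGA this was FNIP2, a partner of the RRAGC and RRAGD regulator folliculin, with 200, 241 and 125 raw counts in knockdown libraries, against 233, 240 and 225 in control libraries, and a log2 fold change of -0.51 (edgeR, adjusted p = 0.0307). FNIP2 lost its call without knockdown replicate 1 or 3 or control replicate 1, 2 or 3 (adjusted p = 0.0526 to 0.192), and the list had 0 calls without knockdown replicate 1 or control replicate 3 and 1 without any other library. Of 14 tested GATOR, KICSTOR and sensor genes, which include the sestrins' binding partner GATOR2, 0 were called by edgeR, DESeq2 or limma-voom, 2 had an unadjusted p under 0.05, the median was 0.06, and 1 was higher without control replicate 1. Among 5 tested genes of the TSC complex, RHEB and DDIT4 relatives, 0 were called by edgeR or limma-voom and 1 had an unadjusted p under 0.05, with a median of 0.02, and 1 was lower with DESeq2, with no filter on low counts, with the replicate block and without knockdown replicate 2.

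The upstream kinases gave no calls. Of 10 tested genes of AMPK and its kinases, which sense energy, 0 were called and 0 had an unadjusted p under 0.05 in edgeR, with 0 also by DESeq2 and limma-voom and a median of -0.04. Of 12 tested genes of insulin, PI3K and AKT signalling, 0 were called by edgeR, DESeq2 or limma-voom, 2 had an unadjusted p under 0.05, and the median was 0.04.

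Downstream of mTORC1, 2 of 13 tested effectors rose and 2 fell, with a median of 0.09. PDCD4, an inhibitor of the helicase EIF4A1, rose to 46.96 ± 2.065 CPM in the knockdown, against 30.3 ± 2.09 CPM in controls, a log2 fold change of 0.63 (edgeR, adjusted p = 6.26e-05). The autophagy kinase ULK1 rose by 0.40 on the log2 scale (edgeR, adjusted p = 0.00862), a call lost without knockdown replicate 2 (0.0643). EIF4E, the cap-binding factor held by the 4E-BPs, was lower, at 80.5 ± 4.18 CPM in the knockdown and 98.9 ± 3.36 CPM in controls (edgeR, adjusted p = 0.01875). It lost its call without knockdown replicate 1 or 3 or control replicate 2 (adjusted p = 0.0568 to 0.0780). MITF, a relative of the lysosome factor TFEB, had a log2 fold change of -0.46 (edgeR, adjusted p = 0.0147), lost without knockdown replicate 1 or control replicate 2 (0.0627 and 0.0668). The list's 2 lower genes became 0 in either of those cases and 1 without knockdown replicate 3. Of 21 tested lysosome targets of TFEB and TFE3, a programme that mTORC1 is known to restrain, 0 were called by edgeR, DESeq2 or limma-voom, 4 had an unadjusted p under 0.05, the median was -0.08, and 1 was lower without control replicate 1.

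**Figure D4:**
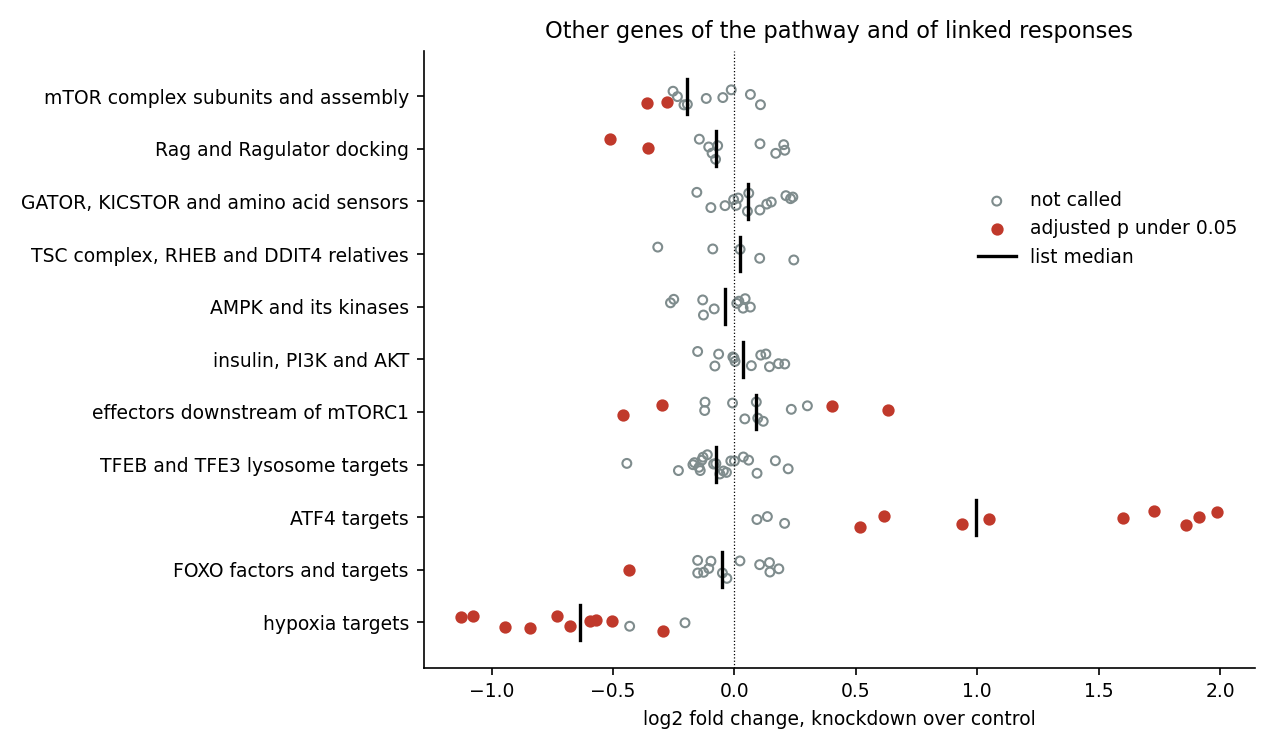
Log2 fold change, knockdown over control, of each tested gene in 11 lists; red points have an adjusted p under 0.05, open points were not called, and black bars are list medians. Medians of the pathway lists lie between -0.19 and 0.09, against 0.99 for ATF4 with its targets and -0.64 for the hypoxia targets.

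The members were set beside the responses that are known to induce them. The ATF4 list held 12 tested genes, ATF4 itself and its targets. Of these, 9 rose, ATF4 among them, and 0 fell (edgeR, with 9 at an unadjusted p under 0.05). By DESeq2 and limma-voom 0 were lower, and the median log2 fold change was 0.99. PSAT1, TRIB3, NUPR1 and CHAC1 led by p-value, with 1.73, 1.599, 1.99 and 1.86, against 1.24 for SESN2, 0.90 for DDIT4 and 0.57 for EIF4EBP1. Of 12 tested hypoxia targets, 10 fell and 0 rose (edgeR, DESeq2 and limma-voom alike, with 12 at an unadjusted p under 0.05), with a median of -0.64, and CA9, PFKFB4, HK2 and EGLN3 led with -1.12, -0.84, -0.73 and -1.08. All 12 hypoxia targets had log2 fold changes below 0, from -1.12 to -0.20, and DDIT4, which both responses are known to induce, rose. Over all tested genes 3.96% were higher and 4.12% lower, and these lists too were picked after earlier results were known. What raised SESN2, DDIT4 and EIF4EBP1 was not tested.

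Of 13 tested FOXO factors and targets, BCL6 was lower by -0.43 (edgeR, adjusted p = 0.0108), lost without control replicate 1 (0.0708), and 0 were higher by edgeR, DESeq2 or limma-voom, with 1 of the list at an unadjusted p under 0.05 and a median of -0.05.

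Control replicate 2 was also compared with the other controls. DDIT4 was highest of the controls in control replicate 2, as were all 12 tested hypoxia targets, where 32.3% of all tested genes had their highest control there. SESN2 had its lowest control there, as did 6 of the 12 ATF4-list genes, ATF4 among them, and 33.2% of all tested genes. Another 4 of the 12, CHAC1 and NUPR1 among them, had their highest control there, so the ATF4 list went both ways in this library. Without control replicate 2 the log2 fold changes were 1.13 for SESN2, 1.04 for DDIT4 and 0.50 for EIF4EBP1. Without knockdown replicate 1 the log2 fold changes were 1.23 for SESN2, 0.97 for DDIT4 and 0.58 for EIF4EBP1.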

How the data were processed

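Polyadenylated RNA of 6 libraries was sequenced from a strand-specific dUTP kit. The table deposited by the authors holds raw read counts per gene, per the file headers. Per the submitters' processing notes, hg19 and DESeq2 were used, with featureCounts 2.0, STAR 2.7.9a and fastp 0.20.0. Settings, strand use and annotation release: not given in the sources used here. A further 6 columns repeat the library names over normalised values and were not used, and 2 lines held no values.

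Groups follow the genotype label. After edgeR's filterByExpr (minimum count 10) and TMM scaling, 12305 genes were fitted with edgeR 4.0.16 (glmQLFit, robust, group alone) and adjusted over all of them by Benjamini-Hochberg; the genes removed hold 0.0556% of counts. The SE is the absolute log2 fold change over the root of F, and intervals use the fit's degrees of freedom. Levels are CPM of the scaled library. Intervals and floors on single counts cover counting error only. No replicate pair agreed within sampling noise. Chi-square per degree of freedom was 3.05 for knockdown replicates 2 and 3, and 10.2 to 10.9 for the other pairs.

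The members and the 15 lists were chosen with earlier results of these data known. Some listed genes, and 1 list, are not reported here. Named genes are the members, ALKBH3, in each list at most 4 called genes, by smallest p, the relatives and partners TSC1, RRAGA, RRAGB, EIF4EBP3 and DDIT4L, identity markers, and the 3 closest patterns to SESN2, SESN3 and DDIT4 (pseudocount 0.5 CPM). NTHL1 and PKD1, which overlap TSC2, were added after values were seen, as were the call of ATF4 itself, the count ratios and the per-kilobase levels. Alternatives used DESeq2 1.42.0 and limma 3.58.1 in R 4.3.3. The code was tested on simulated data.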

Additional observations from a re-analysis of the deposited data

How the results depend on the processing

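All 16 alternatives called SESN2, DDIT4 and EIF4EBP1 higher and none of the 10 members lower. They were other scalings, filters, dispersion estimates, tests, the replicate block, a threshold of 0.01 and the fit without each library in turn. The log2 fold change ran from 1.13 to 1.33 for SESN2, from 0.74 to 1.04 for DDIT4 and from 0.49 to 0.72 for EIF4EBP1. RRAGD and DEPTOR were not tested with a filter of 1 CPM in 3 libraries. The limma-trend fit was planned on the deposited normalised counts, which was not run; it used counts scaled here by DESeq2's size factors, a choice made after seeing the data. It gave the same counts of 0 as limma-voom in every list. Same-numbered libraries had deviations correlated at 0.0579, 0.107 and -0.0556, and not every library correlated best with its own number, so the numbers were not taken to pair them. With the number as a replicate block, 1234 of all tested genes were called, against 994, and 4 pathway genes were higher in place of 2 and 7 lower in place of 6. At an adjusted p under 0.01, 0 pathway genes were lower, and over all tested genes 251 were higher and 207 lower, against 487 and 507. Leaving out 1 library at a time gave 1 to 3 pathway genes higher and 1 to 4 lower, and 312 to 433 of all tested genes higher and 285 to 423 lower. The causes were not tested. Depth limits SESN3, RRAGD and DEPTOR, each with at most 37 counts in a library.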
